A study of Mus musculus with 10 samples.

Results

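The subunits of Polycomb repressive complex 2 (PRC2) were followed in purified mouse epidermal cells, as 10 genes named by their symbols: Eed, Ezh1, Ezh2, Suz12, Rbbp4, Rbbp7, Jarid2, Aebp2, Mtf2 and Phf19. All 10 were present among 18502 genes in the table of the Eed libraries and among 18344 genes in the table of the Ring1 libraries. RNA was sequenced from the interfollicular epidermis of adult back skin, sorted by FACS for EpCAM, Sca1 and high α6-integrin, at postnatal day 71. The labels name 3 Eed KO libraries with 3 Eed control libraries, and 2 Ring1a/b 2KO libraries with 2 Ring1 control libraries of their own. The labels give 1 treatment for all 4 groups, controls included: 100 µl of 4-hydroxytamoxifen at 20 mg/ml on shaved back skin, daily for 4 days from postnatal day 50, to induce recombination. The sources used here do not give the Cre driver, the exons removed, the sex of the mice or whether each library came from a separate mouse. The p-values below therefore measure the spread between libraries, which may be technical in part.

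PRC2 places methyl groups on lysine 27 of histone H3, a mark of silenced developmental genes. EZH1 and EZH2 are its alternative catalytic subunits. EED, which binds the finished mark, and SUZ12 are needed for their activity, and RBBP4 and RBBP7 are histone-binding proteins shared with other chromatin complexes. JARID2 and AEBP2 define the PRC2.2 form, whereas MTF2, PHF19 and PHF1 (the Polycomb-like proteins) define the PRC2.1 form. The other Polycomb complex, PRC1, carries RING1 (also called Ring1a) or RNF2 (Ring1b) as its ubiquitin ligase, and its mark on histone H2A can be bound by JARID2 and AEBP2. In the epidermis, EZH2 is known as the more abundant enzyme of dividing progenitors, and EZH1 as the form that persists in cells that have stopped dividing.

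The 250 bases before each RefSeq transcription start (GRCm38.p6) were searched for motifs. Stretches from them are printed for 3 members, because Eed is the gene targeted in a knockout and Ezh1 and Ezh2 are the alternative enzymes compared below. Printed are the longest runs that no annotated UTR covers: 243 bases at chr7:89980984-89981226 for Eed, all 250 at chr11:101226464-101226713 for Ezh1, and 125 at chr6:47595059-47595183 for Ezh2, all on the minus strand. Capitals mark the letters CCAAT on either strand, a CCAAT box that the factor NF-Y is known to bind in many promoters of dividing cells.
Eed: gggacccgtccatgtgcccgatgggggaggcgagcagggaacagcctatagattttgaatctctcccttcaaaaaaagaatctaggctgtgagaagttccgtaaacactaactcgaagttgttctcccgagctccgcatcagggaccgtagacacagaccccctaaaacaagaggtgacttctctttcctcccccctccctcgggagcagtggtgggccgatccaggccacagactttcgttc
Ezh1: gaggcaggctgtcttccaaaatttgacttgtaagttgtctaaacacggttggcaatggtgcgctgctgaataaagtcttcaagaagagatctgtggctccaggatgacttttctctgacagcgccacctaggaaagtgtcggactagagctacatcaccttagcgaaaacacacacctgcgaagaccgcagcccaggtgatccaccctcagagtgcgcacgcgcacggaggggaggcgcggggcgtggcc
Ezh2: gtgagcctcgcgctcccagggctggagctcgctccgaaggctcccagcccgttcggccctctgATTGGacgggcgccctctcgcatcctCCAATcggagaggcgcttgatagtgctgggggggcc
Over the full 250 bases Ezh2 held 3 matches, 90, 64 and 11 bases before the start, the third lying outside the printed run, and Eed and Ezh1 held none. RefSeq lists 14 such starts for the 10 members, and 7 of the 14 stretches held CCAAT on either strand, against 33.8% of all 32851 stretches. The letters TTTCCCGC or TTTGGCGC, written for the E2F factors of the cell cycle, were found before the starts of Suz12 and Phf19, 2 of 14 stretches against 1.30% of all. The GC box GGGCGG was found in 9 of 14 against 32.7%, and CCGGAAG, an ETS motif, in 0 of 14 against 6.91%. Over 250 bases the Eed, Ezh1 and Ezh2 stretches held 12, 14 and 23 CG dinucleotides, against a median of 6 over all stretches. No searched motif overlapped another within the 3 printed stretches, and a match of letters describes the sequence and not a bound site.

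The per-library values are normalised read counts, that is reads divided by a scaling factor for each library. The reads recovered from these values totalled 31699979 to 40701183 per library in the Eed table. For the Ring1 table they totalled 25158144 and 7162907 (controls) and 19814853 and 6237389 (2KO), so replicate 2 was the shallower library in both groups. The keratin genes Krt5 and Krt14, which mark basal keratinocytes, were present at 57541 normalised counts or more in every library. Of the 10 basal markers, 5 had positive and 5 negative differences in the Eed comparison (median −0.04), and 2 positive and 8 negative in the Ring1 comparison (median −0.31), where Krt15 was at −0.99 and Col17a1 at −0.92. The 8 markers of differentiated keratinocytes had medians of −0.57 and −0.53, and in the Ring1 comparison their summed counts were 40735 to 45825 in controls and 56206 to 59564 in 2KO, with Krt1 at 1.33 and Lor at −2.13. None of these 18 markers passed the limma test. The authors' deposited table for Ring1 called 1 of 8 differentiated markers higher and 1 lower, against 1.49% of all genes. Summed fibroblast markers (7 of 7 measured) ranged from 62.9 to 258 in the Eed controls and 355 to 959 in Eed KO, and from 87.5 to 123 and 156 to 788 in the Ring1 groups. Dcn made up most of the sum in Eed KO replicates 1 and 2 (863 and 306) and in 2KO replicate 1 (691), but not in Eed KO replicate 3 (129) or 2KO replicate 2 (48.4). The collagen gene Col1a1 measured 41.1 ± 26.7 (SD, n = 3) in the Eed controls against 51.2 ± 25.7 (SD, n = 3) in Eed KO, and 11.5 and 24.9 in the Ring1 controls against 51.9 and 48.4 in 2KO. Summed melanocyte markers (7 of 7) ranged from 709 to 785 and 556 to 964 in the Eed groups, and from 240 to 311 and 342 to 630 in the Ring1 groups. Mlana measured 49.2, 7.26 and 41.0 in Eed KO, and Tyrp1 116 and 48.4 in 2KO. Of 6 melanocyte markers tested, 3 had positive and 3 negative differences in the Eed comparison, and 5 and 1 in the Ring1 comparison. By limma 0 melanocyte and 0 fibroblast markers were called. The authors' deposited values called 1 of 6 melanocyte markers higher in each comparison and 1 of 5 fibroblast markers higher in the Eed comparison. Over all genes they called 0.761% in the Eed comparison and 1.49% in the Ring1 comparison. Mlana, Sox10, Pdgfrb and Cdh5 were at 0 in every Eed control, and Tyrp1, Pdgfrb and Cd2 in every Ring1 control. Other markers of those lists were present, such as Mitf (369, 591 and 451) and Pecam1 (489, 161 and 422) in the Eed controls. Summed Langerhans markers ranged from 666 to 2246 in the Eed controls and 887 to 1510 in Eed KO. In the Ring1 groups they ranged from 317 to 391 and 151 to 340. Summed T cell markers ranged from 162 to 186 and 99.6 to 163 (Eed), and 156 to 175 and 221 to 317 (Ring1). The part of other cells in the PRC2 values was not tested. In bulk RNA, fewer cells of a type and less RNA per cell cannot be told apart. The Y-linked gene Ddx3y was at 627 and 223 in Ring1 controls but at 4.33 and 19.7 in 2KO, so sex-linked signal and genotype cannot be told apart in that comparison. In the Eed table both groups were mixed, with Ddx3y at 2581, 2062 and 19.2 in the controls and 7.19, 2320 and 13.4 in Eed KO. The targeted gene Ring1 measured 66.2 and 211 in its controls against 104 and 115 in 2KO, and Rnf2 675 and 670 against 720 and 529. Because the removed exons are not given, counts over whole genes cannot check either genotype, and the group names below are those of the labels.

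No PRC2 member passed the test in either knockout. Across the Eed comparison the 10 log2 fold changes ran from −0.31 for Eed to 0.29 for Phf19, and the other 8 lay between −0.14 and 0.15. Across the Ring1 comparison they ran from −0.54 for Ezh1 to 0.36 for Mtf2. Changes were tested with limma on log2(normalised count + 1) over all genes with a mean of at least 5, with Benjamini-Hochberg adjustment and a threshold of 0.05. All 10 members passed that filter in both tables.

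**Figure D1:**
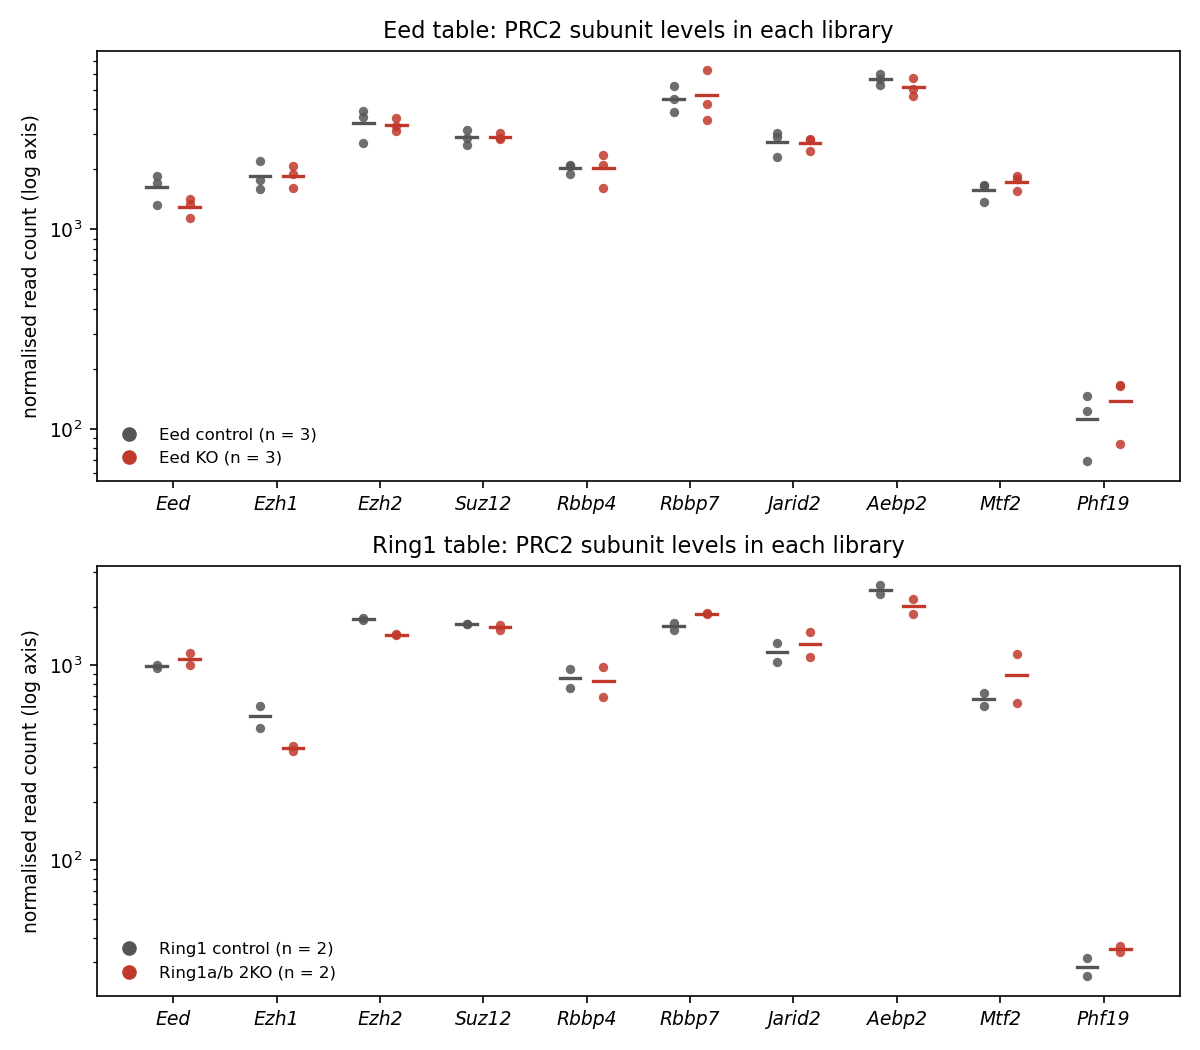
Normalised read counts (log axis) of the 10 PRC2 genes in each library, with controls in grey, knockouts in red and bars at the group means; the Eed table is above and the Ring1 table below, and the tables were normalised separately. Ezh1 in the 2KO libraries (388 and 362) lies below both Ring1 controls, whereas the Eed groups overlap for every member.

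Among the core genes, Eed was tested first because it is the targeted gene (ENSMUSG00000030619.9, chr7:89954654-89980983 on GRCm38). Eed measured 1845, 1319 and 1706 normalised counts in the Eed controls and 1412, 1143 and 1340 in Eed KO. Eed KO replicate 2 was the lowest library, yet replicates 1 and 3 lay above control replicate 2, so the groups overlapped. The Eed change was −0.31 ± 0.20 (log2, SE), a fold of 0.805 with a 95% interval of 0.591 to 1.10 and a limma adjusted p of 0.989. Without control replicate 1 the Eed change was −0.21, and without control replicate 2 it was −0.46. Ring1 controls held 1006 and 975 Eed counts, against 1008 and 1156 in 2KO, a change of 0.12 ± 0.20 (limma adjusted p = 0.868). Both 2KO libraries lay above both controls, replicate 1 by little. Some Eed reads could belong to a neighbour: 11.0% of its 31-base words also occur in transcripts of E230029C05Rik, annotated in part as antisense, and no source used here gives the strand setting of the counting.

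Suz12, the scaffold subunit (chr11:79993106-80034123), changed by less than its error in both tables. Its counts were 2647, 2864 and 3153 in the Eed controls and 3037, 2831 and 2869 in Eed KO, with every knockout value inside the control range. Its change was 0.02 ± 0.16 (limma adjusted p = 0.996), and the 95% interval of the fold was 0.787 to 1.30. Suz12 measured 1638 and 1634 in Ring1 controls against 1609 and 1526 in 2KO. Both 2KO values were lower than both controls, and the change of −0.06 ± 0.19 (limma adjusted p = 0.938) was within the error.

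Of the catalytic subunits, Ezh2 (chr6:47530139-47595341) measured 3636, 2719 and 3927 in the Eed controls and 3621, 3305 and 3115 in Eed KO. The knockout values lay within the control range, and the change was −0.02 ± 0.19 (limma adjusted p = 0.996). The Ring1 controls gave 1754 and 1707 Ezh2 counts, and the 2KO libraries gave 1432 and 1445. The 2 groups were separated by more than the gap within either, and the change was −0.27 ± 0.19 (limma adjusted p = 0.674), a fold of 0.832 with a 95% interval of 0.616 to 1.12.

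Ezh1 (chr11:101191115-101226463) had the largest change of any member. In the Eed table it measured 2195, 1768 and 1596 in the controls and 1615, 2066 and 1890 in Eed KO, again overlapping, with a change of 0.01 ± 0.19 (limma adjusted p = 1.00). Ezh1 measured 476 and 622 in Ring1 controls against 388 and 362 in 2KO, so both 2KO values lay below both controls. The change was −0.54 ± 0.24, a fold of 0.690 with a 95% interval of 0.476 to 1.00 (limma adjusted p = 0.480). Without Ring1 control replicate 2, the higher control, the Ezh1 change was −0.34. The test of the difference between the knockout effects gave 0.54 ± 0.30 for Ezh1 (limma adjusted p = 1.00), −0.44 ± 0.28 for Eed and 0.25 ± 0.27 for Ezh2. In that test 0 of 10 members and 0 of 15096 genes passed (background 0%), with 1.89% of genes at an unadjusted p under 0.05.

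Neither histone-binding subunit passed the test. Rbbp4 (chr4:129307100-129335370) measured 2106, 1894 and 2088 in the Eed controls and 2360, 2111 and 1603 in Eed KO. Eed KO replicates 1 and 2 lay above every control and replicate 3 below, and the change was −0.02 ± 0.19. The Ring1 controls measured 770 and 961 and the 2KO libraries 688 and 986, where replicate 2 was the higher in each group. Rbbp7 (chrX:162760402-162779092) measured 3850, 5203 and 4513 in the Eed controls and 6263, 3536 and 4270 in Eed KO, with Eed KO replicate 1 above every other library. Its change was 0.02 ± 0.24. Among the Ring1 libraries Rbbp7 measured 1661 and 1519 (controls) and 1829 and 1859 (2KO), with a change of 0.22 ± 0.19 (limma adjusted p = 0.744). The 2KO values were both higher, and Rbbp7 is X-linked in a comparison whose groups differ in Y-linked expression; the part of sex was not tested. Of the 31-base words of Rbbp4, 37.9% also occur in transcripts of other genes, as do 16.5% of those of Rbbp7, although the pair share none with each other. For Rbbp4 the largest overlaps were with the lincRNA Gm26722 (17.0%) and the protein-coding gene Sync (10.8%). For Rbbp7 they were with the processed pseudogene Gm6382 (11.6%) and the protein-coding gene Txlng (4.91%). Reads of both could therefore be divided with those transcripts.

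Neither PRC2.2 subunit passed the test. Jarid2 (chr13:44729474-44921643), which can bind the PRC1 mark, measured 3044, 2298 and 2904 in the Eed controls and 2793, 2478 and 2824 in Eed KO, all within the control range. Jarid2 measured 1305 and 1040 in Ring1 controls against 1110 and 1479 in 2KO, which overlapped, with a change of 0.14 ± 0.23. Aebp2 (chr6:140622663-140678472) measured 5277, 5972 and 5683 in the Eed controls and 4638, 5073 and 5704 in Eed KO. Eed KO replicates 1 and 2 lay below every control and replicate 3 lay within them, and the change was −0.14 ± 0.17. Ring1 controls gave 2312 and 2581 Aebp2 counts, against 2184 and 1840 in 2KO. Both 2KO values were lower, with a change of −0.29 ± 0.20 (limma adjusted p = 0.670).

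Among the Polycomb-like subunits of PRC2.1, Mtf2 (chr5:108065674-108109004) measured 1676, 1376 and 1656 in the Eed controls and 1797, 1861 and 1549 in Eed KO. Eed KO replicates 1 and 2 lay above every control, and the change was 0.15 ± 0.18. Mtf2 measured 722 and 620 in Ring1 controls against 645 and 1142 in 2KO. The change of 0.36 ± 0.29 (limma adjusted p = 0.706) rested on 2KO replicate 2, the shallowest library: without it the change was −0.05, and without 2KO replicate 1 it was 0.77 (limma adjusted p = 0.123). Of the 31-base words of Mtf2, 9.36% also occur in transcripts of other genes, with 8.87% in those of the protein-coding gene Tmed5. Phf19 (chr2:34893757-34914026) was the lowest member, at 124, 69.0 and 146 in the Eed controls and 165, 84.0 and 164 in Eed KO. In both Eed groups replicate 2 was the low library. Without control replicate 2 its change of 0.29 ± 0.43 became −0.03. Phf19 measured 25.5 and 31.6 in Ring1 controls against 36.5 and 34.1 in 2KO, from 19 to 59 reads. Its 19 reads in 2KO replicate 2 allow 20.5 to 53.2 normalised counts (exact Poisson 95% interval, counting error only), a range that holds the control values. The 59 reads in 2KO replicate 1 allow 27.8 to 47.0, which holds control replicate 2 but not control replicate 1. The interval of control replicate 1 was 18.9 to 33.7.

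**Figure D2:**
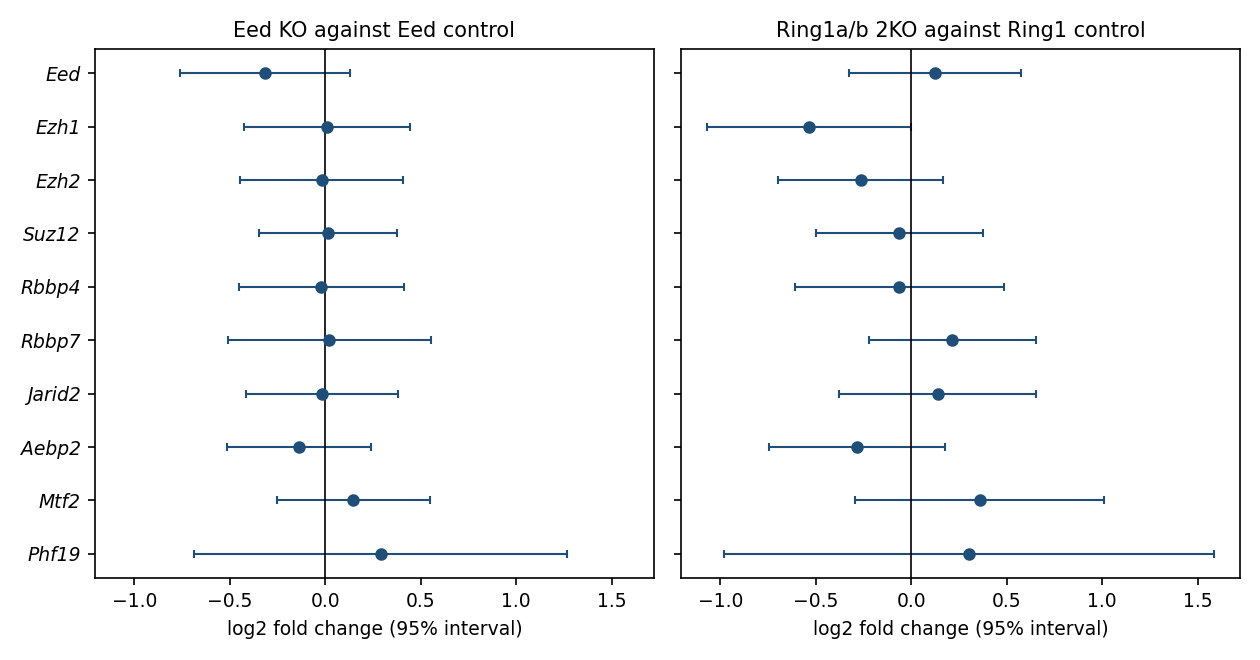
Log2 fold changes (points) of the 10 PRC2 genes with 95% limma intervals (bars) in the Eed comparison, left, and the Ring1 comparison, right. Every interval reaches or crosses 0, and that of Ezh1 in the Ring1 comparison, −1.07 to 0.0005, only just does.

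Counted over the members, 0 of 10 were called in the Eed comparison, where 0 of 16122 genes were called by limma (background 0%) and 762 genes, 4.73%, and 0 members had an unadjusted p under 0.05. edgeR's quasi-likelihood test on the recovered reads called 0 of 15081 genes there, with 698 genes, 4.63%, at an unadjusted p under 0.05. The authors' deposited table called 127 of 16684 genes (0.761%) and 0 of the 10 members, and DESeq2 on the recovered reads called the same number of each. In the Ring1 comparison limma called 0 of 10 members and 6 of 15310 genes (0.0392%), with 1597 genes, 10.4%, and 0 members at an unadjusted p under 0.05. edgeR called 6 of 14565 genes (0.0412%) and 0 members, with 9.96% of genes at an unadjusted p under 0.05. The authors' deposited table called 0 members among 231 calls in 15498 genes (1.49%), and DESeq2 on the recovered reads 0 members among 238 calls in 15143 (1.57%). In each comparison 5 changes were positive and 5 negative. Knockout and control values were fully separated for 0 of 10 members in the Eed comparison, against 9.2% of genes (5.06% higher and 4.15% lower), and for 7 of 10 in the Ring1 comparison, against 42.9% of genes. Of these 7, Eed, Rbbp7 and Phf19 were higher in 2KO (21.4% of genes) and Ezh1, Ezh2, Suz12 and Aebp2 lower (21.5%).

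The intervals say how large a change could have been missed. In the Eed comparison 9 of 10 intervals lay within a 2-fold change either way and 8 of 10 within 1.5-fold, Eed (down to 0.591) and Phf19 (0.620 to 2.41) being the wider. In the Ring1 comparison, with 2 libraries a group, 7 of 10 lay within 2-fold and 2 of 10 within 1.5-fold. The median absolute log2 change of the members was 0.02 in the Eed comparison, against 0.23 over all genes tested and 0.18 over genes with a mean of at least 100. In the Ring1 comparison it was 0.24 for the members, 0.32 over all genes and 0.25 over genes with a mean of at least 100. Neither gene set is matched to the members in level. Other than Phf19, the members had means of 1461 to 5391 in the Eed table and 462 to 2229 in the Ring1 table. The SE of each member in the Eed comparison was 0.16 or more. The signed medians of the members were −0.01 and 0.03, against 0.008 and −0.0006 over all genes.

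Levels were compared between genes as normalised counts per kilobase of the longest coding transcript, in the control libraries. In the Eed controls Rbbp7 was highest at 2015 ± 301 (SD, n = 3) and Ezh2 next at 1230 ± 226, with every Ezh2 control below every Rbbp7 control. Aebp2 (951 ± 58.9), Eed (785 ± 132) and Suz12 (660 ± 58.1) followed, each overlapping the gene before it. Rbbp4 (460 ± 26.6) lay below Suz12 in every control, and Jarid2 (458 ± 66.1), Ezh1 (440 ± 73.3) and Mtf2 (386 ± 41.3) each overlapped the gene before. Phf19 was lowest at 30.1 ± 10.6, below Mtf2 in every control. In the Ring1 controls Rbbp7 (708 ± 44.7, n = 2) was again first, Ezh2 (621 ± 12.0) second and Phf19 (7.63 ± 1.14) last, with Ezh1 (130 ± 24.4) next to last. Each gene of that order lay below the one before in both controls, other than Jarid2 and Mtf2, which overlapped it. The middle of this order depends on the transcript length used: with median transcript lengths Ezh2 was 5th in both tables, while Rbbp7 stayed first and Phf19 last in both tables under all 3 lengths tried.

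Ezh2 exceeded Ezh1 per kilobase in every library. The Ezh2 to Ezh1 ratio of these per-kilobase levels was 2.50, 2.32 and 3.71 in the Eed controls and 3.38, 2.42 and 2.49 in Eed KO. Ring1 controls gave 5.56 and 4.15 and the 2KO libraries 5.57 and 6.02, and with the length of all exons joined it ran from 1.71 to 4.45 over the 10 libraries. As a log2 ratio of normalised counts, Ezh1 to Ezh2 was −0.88 ± 0.36 (SD, n = 3) in the Eed controls and −0.85 ± 0.27 in Eed KO, a difference of 0.03 (exact permutation test, two-sided, p = 0.80). In the Ring1 groups it was −1.67 ± 0.30 and −1.94 ± 0.08 (n = 2), a difference of −0.27 (exact permutation p = 0.333, the smallest that 2 against 2 can give). The 2KO values did not overlap the controls, but 2KO replicate 1 and control replicate 1 were both −1.88, and without control replicate 2 the difference was −0.06.

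The RNA balance of subunits of the 2 PRC2 forms was taken as the log2 ratio of summed Jarid2 and Aebp2 counts to summed Mtf2 and Phf19 counts. This ratio describes RNA and not complexes, and is not corrected for length. Phf1 is not part of it, although Phf1 measured 266 ± 49.5 (SD, n = 3) in the Eed controls, against 113 ± 39.5 for Phf19. The ratio was 2.21, 2.52 and 2.25 in the Eed controls and 1.92, 1.96 and 2.31 in Eed KO. Eed KO replicates 1 and 2 were below every control, replicate 3 was not, and the difference of −0.26 gave an exact permutation p of 0.30, where 3 against 3 cannot go below 0.10. In the Ring1 groups it was 2.27 and 2.47 (controls) and 2.27 and 1.49 (2KO), a difference of −0.49 (exact permutation p = 0.333, the smallest possible). This difference rested on 2KO replicate 2, the library with the high Mtf2 count, and was −0.10 without it.

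**Figure D3:**
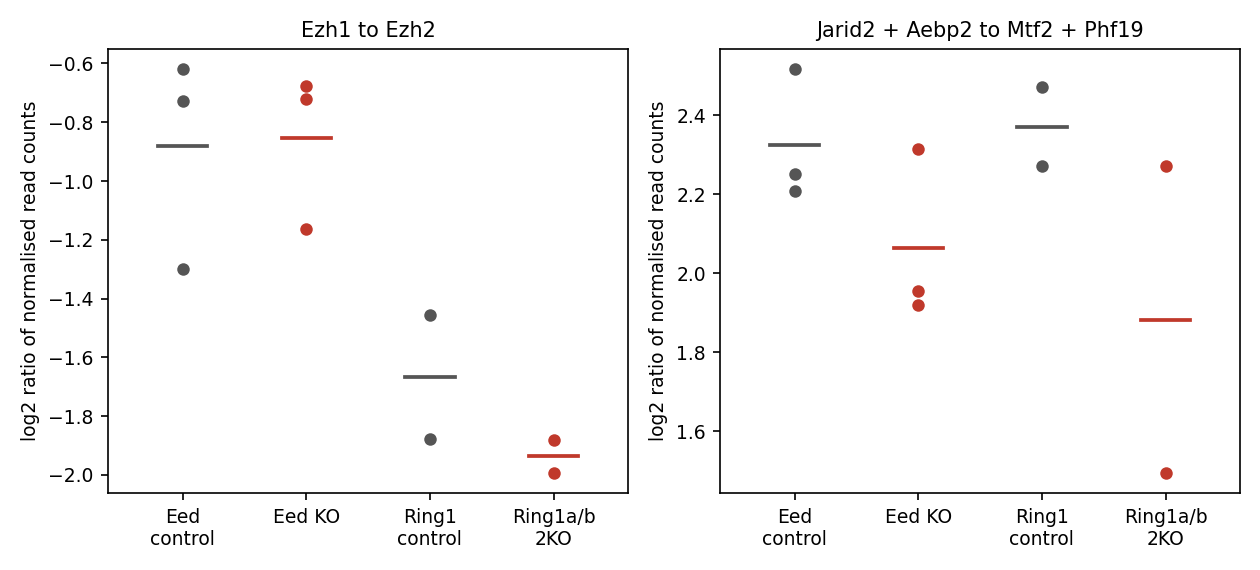
Log2 ratio of normalised read counts in each library (points) and group mean (bars), for Ezh1 to Ezh2, left, and for summed Jarid2 and Aebp2 to summed Mtf2 and Phf19, right. The Eed groups overlap in both panels, and Ring1a/b 2KO replicate 2 lies lowest in the right panel at 1.49.

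Across the 10 libraries, after centring each table on its own mean, Aebp2 and Mtf2 had the most negative correlation of any pair of members (Pearson r = −0.85, n = 10 libraries) and Jarid2 and Mtf2 the most positive (r = 0.73). With each group centred on its own mean, Aebp2 and Mtf2 stayed the most negative (r = −0.82). The most positive pair was then Eed and Jarid2 (r = 0.84), with Jarid2 and Mtf2 at 0.75. These points share library depth and normalisation and are given as a description. The genes most like Eed in pattern were Gtpbp8 (r = 0.91), Chordc1 (0.91) and Epn1 (0.90), over 10 libraries and 11036 genes. For Ezh1 they were Uprt (0.97), Acad11 (0.94) and Frem2 (0.92), and for Ezh2 Klk9 (0.97), Entpd7 (0.95) and Cfp (0.94). Predicted genes (Gm and Rik symbols) were skipped. Each r is picked as among the highest of 11036, and how high such values run by chance was not tested. Together the 10 members took 0.0644% to 0.0828% of all normalised counts in the Eed table and 0.0890% to 0.106% in the Ring1 table.

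Among the other PRC2 partners, 4 of 5 listed genes had a row and 0 of 4 passed the test in either comparison. Epop, an elongin-binding partner of PRC2.1, had the largest difference of the 4. It measured 50.6, 36.5 and 122 in the Eed controls and 384, 76.7 and 262 in Eed KO. Eed KO replicates 1 and 3 lay above every control, and replicate 2 below control replicate 3. The Epop difference was 1.68 ± 0.65 (limma adjusted p = 0.989), between 1.20 and 2.36 over the alternatives run. Epop measured 53.1 and 11.6 in Ring1 controls against 87.1 and 129 in 2KO, with both 2KO values higher. That difference was 2.03 ± 0.71 (limma adjusted p = 0.405), between 0.98 and 3.08 over the alternatives. In the authors' deposited table the adjusted p of Epop was 0.233 and 0.371. Phf1, a Polycomb-like gene, and Lcor and Lcorl, which encode the PALI proteins of PRC2.1, had log2 differences between −0.41 and 0.01 in both comparisons.

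Kdm6a and Kdm6b, whose enzymes remove the PRC2 mark, were listed with Uty, the Y-linked relative of Kdm6a. All 3 had negative changes in both comparisons, with medians of −0.52 and −0.64. The Kdm6a change in the Eed comparison was 0.003 without control replicate 3. Uty measured 1971, 1404 and 291 in the Eed controls and 24.0, 2025 and 388 in Eed KO. Its change there was −1.79 ± 1.48, in groups that were both mixed for Ddx3y. Kdm6b measured 7245, 4313 and 7582 in the Eed controls and 4031, 3433 and 5821 in Eed KO, with a difference of −0.52 ± 0.27 (limma adjusted p = 0.989). Kdm6b measured 1430 and 929 in Ring1 controls against 1057 and 518 in 2KO, with a difference of −0.64 ± 0.39 (limma adjusted p = 0.632). That difference was −0.12 without 2KO replicate 2, −0.33 without control replicate 1 and −1.15 without 2KO replicate 1. Uty was called lower in the Ring1 comparison, at 314 and 287 in the controls against 22.3 and 35.9 in 2KO (−3.36 ± 0.42, limma adjusted p = 0.0436). The call was lost at a mean of at least 50 (limma adjusted p = 0.0852), in 1 fit over all 10 libraries (0.592) and without control replicate 1 (0.713) or 2 (0.570), while the difference lay between −3.70 and −3.03 over all alternatives. Uty moved as Ddx3y did, and sex and genotype cannot be told apart there.

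The remaining lists held 0 called members by limma in either comparison. The CBX proteins, which read the PRC2 mark for PRC1, had medians of −0.09 and −0.18 over 5 genes. The BAP1 complex, which removes the PRC1 mark, had medians of −0.13 and −0.02 over 4. Methyltransferases that oppose Polycomb silencing had 8 of 9 negative differences in both comparisons, against 7873 of 16122 (Eed) and 7659 of 15310 (Ring1) genes tested. Their medians were −0.20 and −0.30, with Kmt2c at −0.29 ± 0.22 and −0.53 ± 0.21. Their summed counts were 96458 to 107076 in the Eed controls and 74905, 94187 and 98720 in Eed KO, where replicate 1 was lowest. The acetyltransferases Ep300 and Crebbp, which modify the residue that PRC2 methylates, were at −0.07 and −0.20 in the Eed comparison and −0.51 and −0.43 in the Ring1 comparison. The partners of RBBP4 and RBBP7 in other complexes had medians of 0.01 and −0.004 over 12 genes.

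Proliferation genes were listed because Ezh2 is known to be expressed with the cell cycle. Of 20 genes, 19 had a positive difference in each comparison, against 8249 of 16122 genes tested (Eed) and 7651 of 15310 (Ring1). The medians were 0.44 and 0.51, and 0 passed the test. A limma unadjusted p under 0.05 was reached by 1 of 20 in the Eed comparison, against 4.73% of all genes. In the Ring1 comparison it was 8 of 20, against 10.4%. Rrm2, a subunit of the enzyme that makes deoxynucleotides, measured 868, 803 and 1236 in the Eed controls and 3056, 1308 and 1269 in Eed KO. Rrm2 measured 486 and 439 in Ring1 controls against 729 and 1239 in 2KO. Its differences were 0.85 ± 0.34 (limma adjusted p = 0.989) and 1.04 ± 0.27 (limma adjusted p = 0.272). The Eed difference was 0.44 without Eed KO replicate 1. The Ring1 difference was 0.66 without 2KO replicate 2 and 1.42 without 2KO replicate 1, each from a fit with 1 library left in 2KO. Summed proliferation counts were 60792 to 74189 in the Eed controls and 112798, 80994 and 55686 in Eed KO, with replicate 3 below every control. They were 26739 to 29071 in Ring1 controls and 30422 to 40251 in 2KO. In the Ring1 comparison the proliferation sums were thus higher in both 2KO libraries while Ezh2 was lower in both; whether the one bears on the other was not tested.

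**Figure D4:**
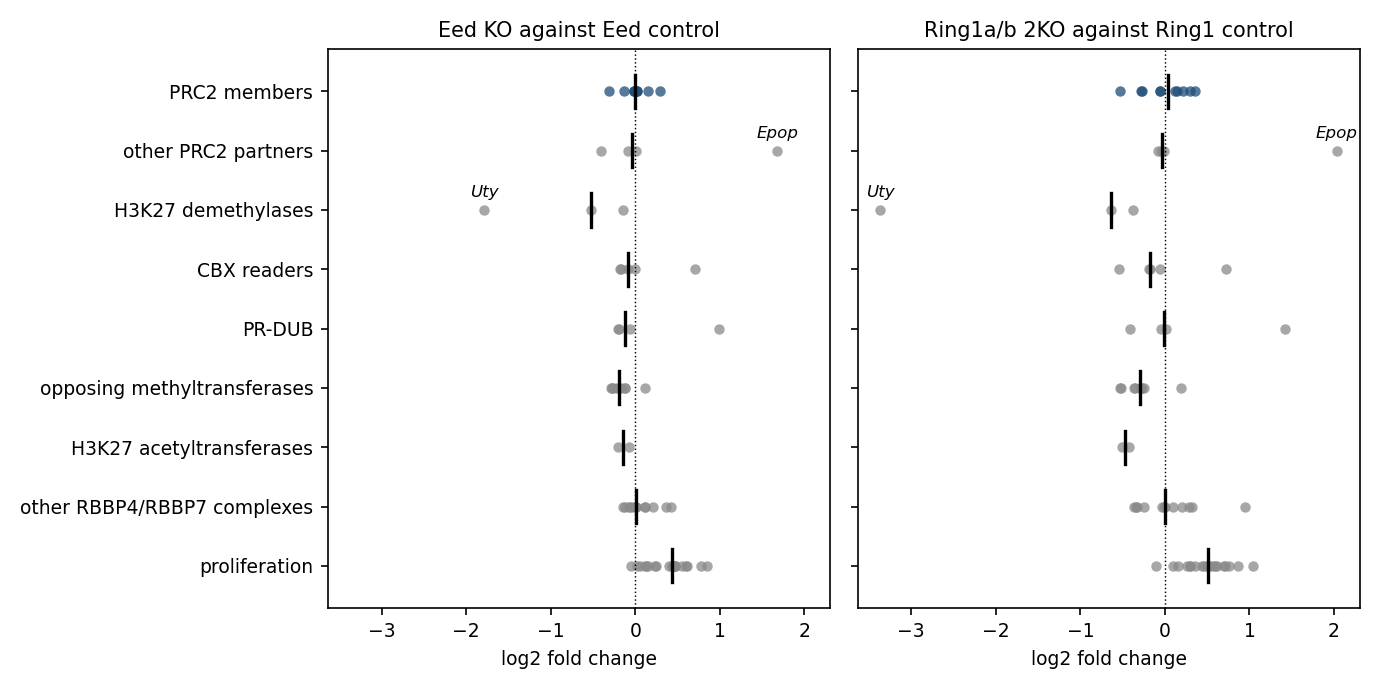
Log2 fold changes of single genes (points) and list medians (black bars) in the Eed comparison, left, and the Ring1 comparison, right, with the PRC2 members in blue. The members lie between −0.54 and 0.36 in both panels, Epop stands at 1.68 and 2.03, and the proliferation list has medians of 0.44 and 0.51.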

How the data were processed

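The submitters' processing notes name kallisto 0.42.5, DESeq2 3.11 and mm10 (GRCm38). The deposited signal columns are normalised counts. All values were whole multiples of 1 step per library (tolerance 1e-06), so reads could be recovered. The deposited log2 fold changes, Wald scores (unused) and p-values are the authors' own. Each knockout was compared with its own control, since the tables were normalised separately, with limma 3.58.1 (trend, robust; R 4.3.3) on log2(value + 1), keeping means of 5 or more. The difference between effects was fitted over 4 group means, and ratios were tested by exact permutation. edgeR 4.0.16 and DESeq2 1.42.0 ran on recovered reads. The fitting script was tested on simulated data. Replicate libraries differed by more than sampling noise. Positions, transcript lengths and 31-base words are from GENCODE M21, and promoters from RefSeq GRCm38.p6, with all 10 members matched in each. Named genes were the members, up to 4 of each pathway list (smallest p) and the 3 genes most like Eed, Ezh1 and Ezh2, at a mean of 50 or more in both tables. The members and lists were chosen with earlier results of these data known.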

Additional observations from a re-analysis of the deposited data

How the results depend on the processing

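The count of PRC2 members called was 0 in both comparisons and in the difference between them under every alternative run: no filter, a mean of at least 50, other pseudocounts, quantile normalisation, an adjusted p under 0.1, the replicate block, the authors' deposited values, edgeR, DESeq2, 1 fit over all 10 libraries, and each library left out (where 1 library remained, it was assumed to vary like the others). The smallest adjusted p of a member was 0.650 in the Eed comparison, 0.123 in the Ring1 comparison and 0.845 for the difference. With the replicate block 0 members were called in each comparison, and calls over all genes went from 0 to 1 and from 6 to 36. The block could not change the Ezh1 to Ezh2 differences of 0.03 and −0.27, because pairing leaves a difference of means the same. Same-numbered libraries had correlations of −0.11, 0.15 and 0.21 in the Eed table, and different-numbered libraries ran from −0.23 to 0.11. In the Ring1 table they were 0.14 and −0.14, equal in size because each group has 2 libraries. Both replicates 2 were also the shallower libraries there. The column names of the Eed libraries also give each same-numbered control and knockout a shared letter (A, B or C). What the letter stands for is not stated, so a pairing of the Eed libraries remains possible. Not every Eed pair was over 0.1 and the Ring1 table has 2 pairs, so the main fits treated the libraries as unpaired. Leaving out 2KO replicate 1 gave 565 calls over all genes. Quantile normalisation turned the sign of Ezh2 (0.030) and Jarid2 (0.0064) in the Eed comparison and of Suz12 (0.10) and Rbbp4 (0.044) in the Ring1 comparison, and edgeR that of Rbbp4 in the Eed comparison (0.0040). The cause was not tested. Leaving out 1 library moved the Ezh1 to Ezh2 difference in the Eed comparison between −0.18 and 0.18. It moved the Eed comparison's changes of Ezh1 between −0.093 and 0.14, Ezh2 between −0.18 and 0.087, Suz12 between −0.046 and 0.080, Rbbp4 between −0.14 and 0.14, Rbbp7 between −0.21 and 0.20, Jarid2 between −0.14 and 0.060, and Phf19 between −0.027 and 0.61. In the Ring1 comparison it moved Rbbp4 between −0.32 and 0.20, Jarid2 between −0.070 and 0.34, Mtf2 between −0.054 and 0.77, and the members' median between −0.06 and 0.21. With 2 libraries a group and 6237389 to 25158144 reads, the Ring1 comparison cannot show changes inside its intervals.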
